A study of Homo sapiens with 24 samples.

Results

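Small nucleolar RNA (snoRNA) host genes are the transcription units from which many snoRNAs are cut. Described here are 10 non-coding host genes, GAS5, SNHG1, SNHG3, SNHG5, SNHG6, SNHG8, SNHG12, SNHG15, SNHG16 and ZFAS1, which were taken from the gene count table by their Ensembl identifiers with the version removed. They are 10 of the 60668 rows of the table, and all 10 passed the filter on low counts that left 22158 genes to be tested. The study profiled MCF-10A, a non-transformed human mammary epithelial cell line, beside MCF-10A MYC-ER, the same line carrying a MYC-ER fusion, both grown as 3D cultures on Matrigel. 4-hydroxytamoxifen (4-OHT), a ligand of the modified oestrogen receptor domain used in such fusions, was given at 1 µM for 8, 24 or 48 h, or not at all (0 h). All cultures were harvested together, and each of the 8 groups of line and time holds 3 libraries of polyadenylated RNA, 24 in all.

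The groups are the parental line and the MYC-ER line, each with 0, 8, 24 or 48 h of 4-OHT. The parental cells received the same 4-OHT as the MYC-ER cells and carry no fusion. Their changes from 0 h all rest on the same untreated libraries. A response to the drug and a trait of those 0 h libraries cannot be told apart in these changes. The labels name no vehicle for the 0 h cultures, no promoter driving the fusion, and do not say whether the MYC-ER line is 1 clone or a pool. The labels do not say that the 3 libraries of a group came from separate cultures on separate days, so the p-values measure the spread between these samples, which may be technical in part.

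As background, host transcripts are spliced, and the introns that are released hold the snoRNAs. Box C/D snoRNAs guide ribose methylation of ribosomal RNA and box H/ACA snoRNAs guide pseudouridylation, each inside a protein particle (snoRNP). The spliced exons that remain are what a poly(A) library reads. For several hosts these exons carry short open reading frames and are removed by nonsense-mediated decay when they are translated. Many hosts start transcription at a cytosine followed by pyrimidines, the terminal oligopyrimidine start shared with ribosomal protein genes. GAS5 was named for its accumulation in growth-arrested cells. MYC is a transcription factor that binds the E-box CACGTG and is known for driving ribosome production.

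The bases around the annotated transcription start are shown for 8 hosts because the pyrimidine start is a feature that many hosts are known to share with ribosomal protein genes. They were read from RefSeq (GRCh38.p14), and the entries for SNHG6 and SNHG15 are missing. Each line gives the 20 bases before the start in lower case and the 20 bases from the start on in capitals, read 5′ to 3′ on the gene's strand.
GAS5 (chr1:173869026-173869065, minus strand): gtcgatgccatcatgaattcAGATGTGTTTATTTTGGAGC
SNHG1 (chr11:62855866-62855905, minus strand): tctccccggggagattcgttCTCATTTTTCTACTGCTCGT
SNHG3 (chr1:28505923-28505962, plus strand): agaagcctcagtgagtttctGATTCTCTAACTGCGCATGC
SNHG5 (chr6:85678714-85678753, minus strand): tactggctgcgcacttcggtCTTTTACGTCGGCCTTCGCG
SNHG8 (chr4:118278742-118278781, plus strand): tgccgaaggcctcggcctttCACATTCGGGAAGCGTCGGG
SNHG12 (chr1:28581854-28581893, minus strand): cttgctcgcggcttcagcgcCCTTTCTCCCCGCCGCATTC
SNHG16 (chr17:76557744-76557783, plus strand): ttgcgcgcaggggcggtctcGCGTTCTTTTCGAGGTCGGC
ZFAS1 (chr20:49278622-49278661, plus strand): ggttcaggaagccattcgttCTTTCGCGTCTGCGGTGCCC

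SNHG5, SNHG12 and ZFAS1, 3 of the 8, had a C at the start followed by at least 4 pyrimidines, as did 4.07% (1429) of the 35116 RefSeq promoters read the same way. The E-box letters CACGTG, which read the same on both strands, occurred in 0 of the 8 windows of 300 bases (250 before the start and 50 after it), against 7.26% (2548) of all promoters. These windows sit at the RefSeq start, which lay 2 to 53 bases from the GENCODE start of SNHG1, SNHG3, SNHG5, SNHG8 and SNHG16, 163 from that of GAS5, 464 from that of ZFAS1 and 1259 from that of SNHG12. A match is a description of these letters, and no match says only that they are not in this window.

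The snoRNAs printed next are the box C/D snoRNAs inside the hosts whose rows had a median of at least 5 counts, and they show what the introns of these genes carry. The sequences are those of the GENCODE 29 transcripts (GRCh38), with the C box letters TGATGA and the last D box letters CTGA in capitals where they occur exactly.
SNORD12B in ZFAS1 (chr20:49280319-49280409, plus strand): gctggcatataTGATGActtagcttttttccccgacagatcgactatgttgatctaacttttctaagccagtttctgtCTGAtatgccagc
SNORD12C in ZFAS1 (chr20:49278940-49279028, plus strand): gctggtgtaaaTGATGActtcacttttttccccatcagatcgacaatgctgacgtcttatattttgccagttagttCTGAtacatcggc
SNORD1B in SNHG16 (chr17:76561109-76561192, plus strand): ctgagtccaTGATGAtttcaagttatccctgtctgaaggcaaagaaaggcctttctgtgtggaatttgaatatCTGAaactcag
SNORD99 in SNHG12 (chr1:28578749-28578822, minus strand): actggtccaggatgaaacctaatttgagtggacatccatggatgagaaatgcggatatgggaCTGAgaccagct

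Counts in the snoRNA rows of these polyadenylated RNA libraries were low. The count matrix has 24 snoRNA rows within the hosts, all on the host's strand, and 12 of the 24 held exactly 1 count in all 24 libraries. None of the 24 lies within GAS5. Across the whole matrix, 292 rows held exactly 1 in every library, and 100 of these are snoRNA genes. Whether such a constant 1 stands for reads or arose in the counting step was not tested. Only 3 of the 24 rows had a median of at least 10 counts. SNORA73B, a box H/ACA snoRNA in SNHG3, had 60 to 202 counts, SNORD99 in SNHG12 had 27 to 93, and SNORD1B in SNHG16 had 4 to 27. Whether such reads came from the snoRNA or from unspliced host RNA was not tested.

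The hosts are small genes. GAS5 (ENSG00000234741.8) spans chr1:173863900-173868882 on the minus strand and has 29 annotated transcripts in GENCODE 29. SNHG3 (ENSG00000242125.3) lies at chr1:28505980-28510892 on the plus strand, and SNHG12 (ENSG00000197989.14) at chr1:28578538-28583132 on the minus strand. SNHG1 (ENSG00000255717.7) lies at chr11:62851988-62855914 and SNHG5 (ENSG00000203875.12) at chr6:85660950-85678748, both on the minus strand. SNHG8 (ENSG00000269893.8) lies at chr4:118278709-118279823, SNHG16 (ENSG00000163597.15) at chr17:76557766-76565348 and ZFAS1 (ENSG00000177410.13) at chr20:49278178-49295738, all on the plus strand. SNHG15 (ENSG00000232956.9) lies at chr7:44983023-44986961 and SNHG6 (ENSG00000245910.8) at chr8:66921684-66926398, both on the minus strand. Each value below sums the reads the authors assigned to the whole gene, so transcripts of a host that keep an intron are counted with the spliced ones.

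The libraries held 136860029 to 182438505 counts, a 1.33-fold range. Levels are given as CPM, the usual unit of a gene's count as a share of the library total, scaled between libraries by TMM, a factor computed from the bulk of genes, with the SD over 3 libraries. Differences were tested with edgeR's quasi-likelihood test over all 22158 genes, and a gene is called higher or lower where its Benjamini-Hochberg adjusted p was under 0.05. A change is on the log2 scale, where 1 is a doubling, and is given with its standard error (SE). CPM are shares of the library, so with bulk RNA a smaller share of cells that express a gene and less of its RNA per cell cannot be told apart.

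As a check of the labels, the MYC row of the untreated MYC-ER cells held 387 ± 8.02 CPM (SD, n = 3), and after 8 h of 4-OHT it held 795 ± 1.77. It then fell below the untreated level, to 321 ± 8.84 after 24 h and 248 ± 4.72 after 48 h. The untreated parental cells, at 532 ± 68.7, held more than the untreated MYC-ER cells. ESR1, the oestrogen receptor gene, had group means of 0.01 to 0.51 CPM. The MYC row does not separate the cell's own MYC from the fusion, so these rows check the label of the MYC-ER line only in part. The 7 basal mammary epithelial markers, among them the keratins KRT5, KRT14 and KRT17, were present in every library, with a summed level of 11800 to 38400 CPM. In MYC-ER that sum was 16900 to 17400 without 4-OHT and 22300 to 24800 after 8 h. It was 12800 to 13300 after 24 h and 11800 to 12500 after 48 h, beside 23500 to 38400 in the 12 parental libraries. Its part in the results on the hosts was not tested. The 4 fibroblast markers summed to 77.3 to 377 CPM. In MYC-ER, COL1A1, a collagen gene, went from 215 ± 4.96 CPM at 0 h to 55.5 ± 2.54 at 8 h, and DCN, the proteoglycan decorin, from 157 ± 0.86 to 49.4 ± 2.32. Their part in the results on the hosts was not tested. Of the other markers, 2 of 3 immune markers (summed maximum 0.0123 CPM) and 1 of 3 endothelial markers (summed maximum 2.32 CPM) were at 0 in all libraries.

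Some parental libraries stood apart for the hosts as a group. Replicate 3 of the parental 0 h group was the highest of its group for 10 of 10 hosts, replicate 2 of the parental 24 h group for 9 of 10, and replicate 1 of the parental 48 h group for 9 of 10. The median coefficient of variation of the hosts in the parental line was 11.7%, 2.57%, 12.02% and 7.39% at 0, 8, 24 and 48 h. In the 4 MYC-ER groups it was 1.55% to 4.15%. The spread was not a matter of the hosts alone. Between pairs of libraries of a group, the chi-squared per degree of freedom, a measure of their disagreement, was 123 to 201 in parental 0 h and 6.93 to 49.3 elsewhere. Every parental change from 0 h, the comparison of the lines at 0 h and the interactions use the parental 0 h group. The values without a library are given where they end a call or move a called value by over 1.5 times.

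Summed over the 10 hosts, the untreated MYC-ER libraries held 1190 to 1243 CPM, and those with 8, 24 and 48 h of 4-OHT held 636 to 656, 764 to 794 and 1006 to 1023. The means of these 4 groups, in order of time, were 1211 ± 28.3, 647 ± 10.1, 775 ± 16.8 and 1017 ± 9.52 (SD, n = 3), so the sum was lowest at 8 h and higher at each later time, with no overlap between the 4 groups. The parental sums, in the same order, were 917 ± 102, 773 ± 14.6, 710 ± 100.2 and 837 ± 93.4. GAS5 alone made up 42.8% of the MYC-ER sum at 0 h and 27.3% at 24 h, and 30.1% to 32.5% of the parental sums.

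**Figure D1:**
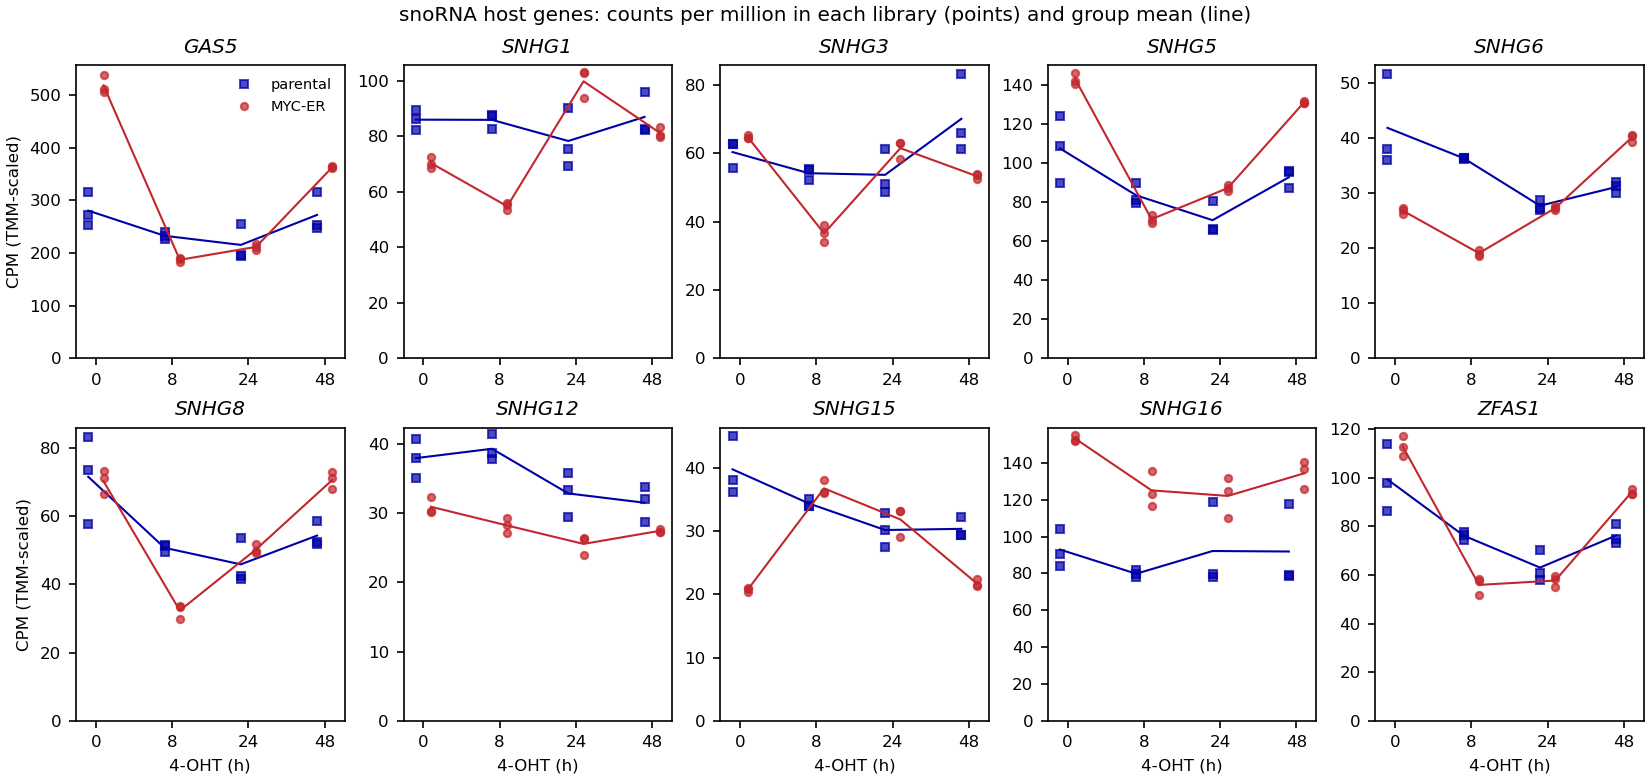
CPM (vertical axes, linear from 0, a different range in each panel) of the 10 host genes against hours of 4-OHT (equally spaced). Points are libraries, blue squares parental and red circles MYC-ER, and lines join the means of 3. GAS5 in MYC-ER falls from a mean of 518 at 0 h to 187 at 8 h, while SNHG15 moves the other way, from 20.8 to 36.8.

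Per kilobase of all annotated exons, GAS5 was the most abundant host in MYC-ER at 0 h, at 142.6 CPM per kb, followed by SNHG8 at 76.0, SNHG5 at 50.9 and ZFAS1 at 50.3. SNHG12 at 7.24 and SNHG15 at 5.70 were the least abundant there. In the parental line at 0 h SNHG8 (77.4 CPM per kb) and GAS5 (77.2) stood side by side, and SNHG12 was lowest at 8.88. With the median annotated transcript length in place of all exons, GAS5 led both lines at 0 h, at 752.8 CPM per kb in MYC-ER and 407.3 in the parental line, so the rank of SNHG8 depends on the length used.

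The question of the time course in MYC-ER is what followed activation of the fusion. At 8 h 7 of the 10 hosts were called lower than at 0 h and 1, SNHG15, was called higher. Of all genes tested, 35.4% were called lower and 32.2% higher in this comparison. The median change of the hosts was -0.66 (log2), and that of all genes -0.10. In 9 of the 10 hosts all 3 libraries at 8 h lay below all 3 at 0 h. The share of all genes that separated in this way is not given here. This count and the later counts of overlap therefore describe the hosts alone.

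GAS5, whose introns hold a series of box C/D snoRNAs, fell the most. It stood at 511, 505 and 538 CPM in MYC-ER at 0 h and at 188, 182 and 191 at 8 h. The groups are far apart, and the change was -1.47 (SE 0.10, edgeR adjusted p = 8.83e-12), 2.77-fold lower. It then stood at 206, 211 and 217 CPM at 24 h and at 361, 364 and 364 at 48 h. All 3 libraries at 48 h were above those at 24 h and below those at 0 h: the change from 24 to 48 h was 0.78 (SE 0.09, edgeR adjusted p = 3.75e-07), and that from 0 to 48 h was -0.51 (SE 0.09, edgeR adjusted p = 0.00012). From 8 to 24 h the difference of 0.18 did not pass (edgeR adjusted p = 0.116), although the ranges do not overlap.

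ZFAS1, the host of the SNORD12 snoRNAs printed above, was 112, 109 and 117 CPM at 0 h, and 57.6, 51.6 and 58.4 at 8 h. The 8 h libraries were all lower, 2.02-fold on average, with a change of -1.01 (SE 0.08, edgeR adjusted p = 2.39e-10). At 24 h the libraries held 59.5, 55.2 and 58.4 CPM, which overlap those at 8 h, and the change from 0 h was -0.97 (SE 0.08, edgeR adjusted p = 6.36e-10). At 48 h they held 93.3, 93.1 and 95.4 CPM, above 24 h and still below 0 h, with a change from 0 h of -0.26 (edgeR adjusted p = 0.00981).

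SNHG5, the host of the SNORD50 pair, was 141, 142 and 146 CPM at 0 h, and 71.0, 69.3 and 73.2 at 8 h. This is a 2.01-fold lower level without overlap (change -1.005, SE 0.09, edgeR adjusted p = 1.09e-09). It stood at 87.1, 85.6 and 88.6 CPM at 24 h and at 132, 131 and 131 at 48 h. Both steps upward were called, 0.29 from 8 to 24 h (edgeR adjusted p = 0.00691) and 0.59 from 24 to 48 h (edgeR adjusted p = 5.39e-06). With the GC trend of each library removed, the step from 8 to 24 h was 0.17 and was not called (edgeR adjusted p = 0.0978). At 48 h the difference from 0 h was -0.12 and was not called (edgeR adjusted p = 0.264).

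SNHG8, the host of the box H/ACA snoRNA SNORA24, was 71.2, 66.3 and 73.1 CPM at 0 h, and 33.6, 29.9 and 33.4 at 8 h. It was 2.17-fold lower at 8 h (change -1.12, SE 0.10, edgeR adjusted p = 2.01e-09). It then stood at 49.2, 49.7 and 51.7 CPM at 24 h and at 71.0, 72.9 and 67.9 at 48 h. The 48 h libraries overlap those at 0 h, with a difference of 0.01 (edgeR adjusted p = 0.965).

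SNHG3, the host of the SNORA73 pair, was 64.4, 65.3 and 64.6 CPM at 0 h, and 34.0, 39.0 and 36.8 at 8 h. The level was 1.77-fold lower at 8 h (change -0.82, SE 0.09, edgeR adjusted p = 5.18e-08). At 24 h the libraries held 58.4, 63.0 and 63.2 CPM, just under those at 0 h, and the difference of -0.07 was not called (edgeR adjusted p = 0.5). At 48 h they held 52.5, 54.0 and 53.6 CPM, lower than at 0 h by a change of -0.28 (edgeR adjusted p = 0.0153). SNHG3 thus lay near its starting level at 24 h and below it at 48 h, although the step from 24 to 48 h (-0.21) did not pass (edgeR adjusted p = 0.061).

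SNHG1 and SNHG6 dipped and then passed their starting level. SNHG1, which hosts a cluster of box C/D snoRNAs, was 68.6, 69.9 and 72.7 CPM at 0 h, and 53.4, 55.9 and 55.1 at 8 h, a change of -0.36 (SE 0.07, edgeR adjusted p = 0.000205). At 24 h it was 93.8, 103 and 103 CPM, above every library at 0 h, with a change of 0.50 (SE 0.07, edgeR adjusted p = 4.08e-06). At 48 h it was 83.5, 79.9 and 80.5 CPM, still above 0 h by 0.21 (edgeR adjusted p = 0.0276). That last call was lost when any of 4 libraries was left out: MYC-ER 0 h replicate 1 or 2, or MYC-ER 48 h replicate 1 or 3 (edgeR adjusted p = 0.0549 to 0.0918).

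SNHG6, the host of SNORD87, was 26.2, 26.9 and 27.3 CPM at 0 h, and 19.7, 18.9 and 18.6 at 8 h, a change of -0.49 (SE 0.08, edgeR adjusted p = 2.17e-05). At 24 h it was 27.2, 27.0 and 27.6 CPM, overlapping 0 h (difference 0.02, edgeR adjusted p = 0.816). At 48 h it was 40.3, 40.5 and 39.2 CPM, above all earlier groups of the line, with a change from 0 h of 0.58 (SE 0.08, edgeR adjusted p = 5.67e-06), 1.49-fold.

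SNHG15, the host of SNORA9, went the opposite way to the other hosts. It was 20.5, 21.0 and 20.8 CPM at 0 h, and 36.1, 38.0 and 36.2 at 8 h. This is a 1.77-fold higher level without overlap (change 0.82, SE 0.07, edgeR adjusted p = 1.7e-09). It was 29.1, 33.2 and 33.2 CPM at 24 h (change from 0 h 0.62, SE 0.07, edgeR adjusted p = 1.92e-07) and 22.4, 21.3 and 21.6 at 48 h. At 48 h the libraries lay just above those at 0 h, and the difference of 0.07 was not called (edgeR adjusted p = 0.497).

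SNHG12 and SNHG16 were not called at 8 h. SNHG12, which hosts SNORD99 and H/ACA snoRNAs, was 32.2, 30.1 and 30.3 CPM at 0 h, and 27.0, 28.3 and 29.2 at 8 h. The 8 h libraries were all lower, but the difference of -0.13 did not pass (edgeR adjusted p = 0.105). At 24 h it was 24.0, 26.4 and 26.2 CPM, lower than at 0 h (change -0.28, SE 0.07, edgeR adjusted p = 0.00188), and at 48 h 27.2, 27.7 and 27.3. Scaled by library size alone, it was not called at 24 h (-0.16, edgeR adjusted p = 0.0863). SNHG16, the host of the SNORD1 snoRNAs, was 152, 155 and 153 CPM at 0 h, and 136, 123 and 117 at 8 h. At the 3 later times it differed from 0 h by -0.29, -0.33 and -0.19, with edgeR adjusted p = 0.0762, 0.0524 and 0.307. No library at these times reached the 0 h range, yet none of these passed. With a spread estimated from the 2 groups compared alone, all 3 passed (edgeR adjusted p = 0.00101, 0.00112 and 0.00266).

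By 24 h 5 hosts were called lower than at 0 h (GAS5, ZFAS1, SNHG5, SNHG8 and SNHG12) and 2 higher (SNHG15 and SNHG1), where 31.2% of all genes were called lower and 30.4% higher. By 48 h 3 were called lower (GAS5, SNHG3 and ZFAS1) and 2 higher (SNHG6 and SNHG1), where 20.7% of all genes were called lower and 23.4% higher. Between successive times, 5 hosts rose from 8 to 24 h (SNHG1, SNHG3, SNHG8, SNHG6 and SNHG5) and SNHG15 fell (-0.21, edgeR adjusted p = 0.0202), with 28.4% of all genes higher and 27.1% lower. The call of SNHG15 was lost without MYC-ER 8 h replicate 2 (edgeR adjusted p = 0.0715) or MYC-ER 24 h replicate 1 (edgeR adjusted p = 0.125) and with library size alone, where this scaling moved the median of all genes by 0.206. From 24 to 48 h GAS5, ZFAS1, SNHG5, SNHG6 and SNHG8 rose and SNHG15 and SNHG1 fell, with 28.2% of all genes higher and 25.5% lower. Scaled by library size alone, the split at 48 h against 0 h was 3 higher and 1 lower, since SNHG3 and ZFAS1 were no longer called and SNHG15 was, and this scaling moved the median of all genes by 0.162.

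**Figure D2:**
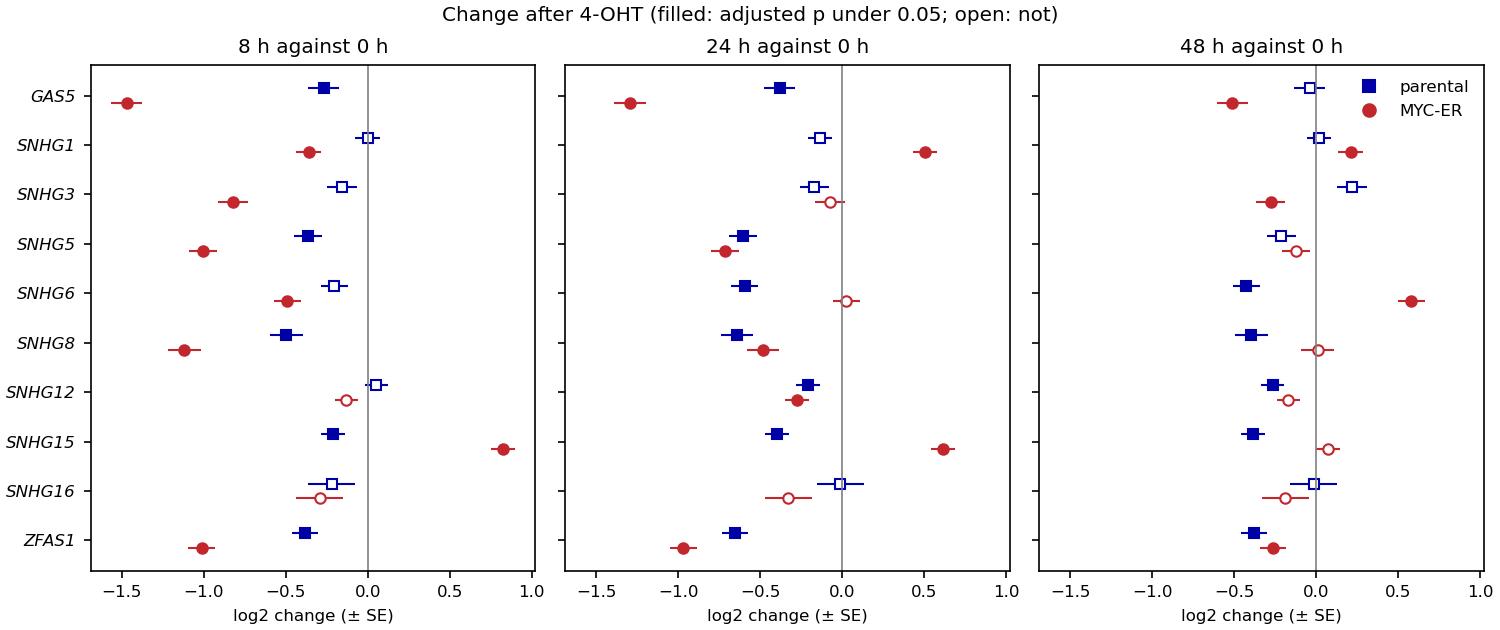
Log2 change from 0 h (horizontal axis, with its standard error) of each host at 8, 24 and 48 h, blue squares for the parental line and red circles for MYC-ER. Filled symbols passed the adjusted p threshold. At 8 h GAS5 in MYC-ER stands at -1.47 and in the parental line at -0.27, and SNHG15 stands at 0.82 and -0.21.

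In the parental line, where 4-OHT has no MYC-ER to bind, every host called at 8, 24 or 48 h in the reported fit was lower than at 0 h. At 8 h 5 hosts were called lower and 0 higher, against 16% and 15% of all genes. At 24 h 7 were lower and 0 higher, against 21.7% and 21.2% of all genes. At 48 h 5 were lower and 0 higher, against 20.1% and 20.4% of all genes. At 48 h 6 of the 10 hosts overlapped their 0 h range. These calls use a spread estimated over all groups. With a spread from the groups compared alone, 0, 5 and 1 hosts passed at 8, 24 and 48 h.

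ZFAS1 in the parental line was 97.6, 86.1 and 114 CPM in the 3 untreated libraries. It was 74.5, 76.2 and 77.7 after 8 h, 58.1, 70.3 and 60.7 after 24 h, and 80.9, 73.1 and 74.6 after 48 h. No later library reached the 0 h range, and the changes were -0.38 at 8 h (edgeR adjusted p = 0.00112), -0.66 at 24 h (edgeR adjusted p = 3.22e-06) and -0.38 at 48 h (edgeR adjusted p = 0.000634). SNHG8 was 73.5, 57.8 and 83.1 CPM untreated. It was 51.4, 51.2 and 49.5 after 8 h, 42.4, 53.4 and 41.6 after 24 h, and 58.5, 51.8 and 52.5 after 48 h. It was called lower at all 3 times, by -0.50, -0.64 and -0.40 (edgeR adjusted p = 0.000821, 3.7e-05 and 0.00284), and overlapped its 0 h range only at 48 h. The call at 48 h was lost without parental 0 h replicate 3 (edgeR adjusted p = 0.0668).

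GAS5 in the parental line was 271, 253 and 316 CPM untreated. It was 226, 233 and 239 after 8 h, 197, 255 and 194 after 24 h, and 315, 247 and 254 after 48 h. Its changes were -0.27 at 8 h (edgeR adjusted p = 0.0343), -0.38 at 24 h (edgeR adjusted p = 0.00233) and -0.04 at 48 h (edgeR adjusted p = 0.776), all closer to 0 than in MYC-ER. SNHG15 was 38.1, 36.2 and 45.1 CPM untreated. It was 35.1, 34.0 and 34.1 after 8 h, 30.2, 32.8 and 27.6 after 24 h, and 32.3, 29.4 and 29.5 after 48 h. It was lower at each time (changes -0.21, -0.40 and -0.39, edgeR adjusted p = 0.0329, 0.000165 and 0.000238), the direction opposite to its rise in MYC-ER at 8 and 24 h. The 8 h calls of GAS5 and SNHG15 were both lost without parental 0 h replicate 3 (edgeR adjusted p = 0.273 and 0.347) and without any 1 of the 3 parental 8 h libraries, and that of GAS5 also without parental 0 h replicate 1 (edgeR adjusted p = 0.0568).

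SNHG6 in the parental line was 37.9, 36.0 and 51.5 CPM untreated. It was 36.4, 36.3 and 36.2 after 8 h, 28.8, 27.3 and 27.0 after 24 h, and 31.2, 32.1 and 29.9 after 48 h. The replicate at 51.5 stands above the rest of its group, and the difference at 8 h did not pass (-0.20, edgeR adjusted p = 0.0659), while those at 24 h (-0.59, edgeR adjusted p = 1.26e-05) and 48 h (-0.43, edgeR adjusted p = 0.00031) did. Without that library, parental 0 h replicate 3, the change at 48 h was -0.22 and was still called. SNHG5 was 109, 89.4 and 124 CPM at 0 h, and 65.6 to 80.2 at 24 h. It was lower at 8 h (-0.37, edgeR adjusted p = 0.00311) and 24 h (-0.60, edgeR adjusted p = 1.69e-05), and the difference at 48 h did not pass (-0.21, edgeR adjusted p = 0.0547). Leaving out parental 0 h replicate 3 also moved the 8 h change of SNHG5 to -0.24, and the 48 h changes of ZFAS1 and SNHG15 to -0.24 and -0.26, all still called.

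SNHG12 in the untreated parental line was 35.1 to 40.7 CPM, and 29.5 to 35.7 and 28.7 to 33.7 after 24 and 48 h. It was called lower at 24 h (-0.21, edgeR adjusted p = 0.0207) and 48 h (-0.27, edgeR adjusted p = 0.00412), and both calls were lost without parental 0 h replicate 3 (edgeR adjusted p = 0.203 and 0.0854). The call at 24 h was also lost without parental 8 h replicate 1 (edgeR adjusted p = 0.0525) or parental 24 h replicate 3 (edgeR adjusted p = 0.151). In the reported fit SNHG1, SNHG3 and SNHG16 were not called at any time in the parental line. SNHG1 ranged from 69.2 to 96.2 CPM over the 12 parental libraries and SNHG3 from 48.8 to 83.4. SNHG16 stood at 77.8 to 104 CPM in 10 of the 12, and at 119 in replicate 2 of the 24 h group and 118 in replicate 1 of the 48 h group.

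Changes in the parental line moved with base composition and transcript length, which should be read beside these values. Over 9784 genes, the log2 change had a Spearman correlation with GC content of -0.621, -0.657 and -0.652 at 8, 24 and 48 h, and with length of 0.386, 0.548 and 0.603. In MYC-ER those with GC content were 0.0173, -0.0628 and 0.0261. For the difference between the lines at 0 h the correlation was -0.258 with GC content and 0.381 with length. At 8, 24 and 48 h that with GC content was -0.0127, 0.0158 and 0.122. The interactions at 8, 24 and 48 h had 0.233, 0.25 and 0.462 with GC content, and -0.254, -0.382 and -0.47 with length. These are correlations across genes, which are not independent replicates. Only the trend with GC content was removed in an alternative fit, and the part of length in these changes was not tested. With the GC trend of each library removed, 7, 8 and 5 parental hosts were called at 8, 24 and 48 h, of which 1 (SNHG12 at 8 h, 0.21) was higher, and SNHG12 at 24 h stood at 0.02 in place of -0.21. In that fit SNHG12 was not called at 48 h either (-0.08, edgeR adjusted p = 0.385). SNHG1 (-0.29, edgeR adjusted p = 0.00222) and SNHG3 (-0.22, edgeR adjusted p = 0.0385) were called lower at 24 h, as were SNHG6 at 8 h (-0.36, edgeR adjusted p = 0.0143) and SNHG5 at 48 h (-0.26, edgeR adjusted p = 0.0246). Calls that held but moved were GAS5 at 8 and 24 h (-0.42 and -0.57), SNHG6 at 48 h (-0.64) and ZFAS1 at 8 and 48 h (-0.24 and -0.21). Fitted with edgeR on the 6 libraries compared alone, 0 hosts passed at 8 h and 1 at 48 h, with 5 hosts under an unadjusted p of 0.05 at each of these times. DESeq2 on all libraries called 5 at 8 h and 7 at 48 h.

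At 0 h, before any 4-OHT, the 2 lines already differed in most hosts. MYC-ER was higher in 4 (GAS5, SNHG16, SNHG5 and ZFAS1) and lower in 4 (SNHG15, SNHG6, SNHG12 and SNHG1), where 31.6% of all genes were higher and 32.7% lower. GAS5 stood at 505 to 538 CPM in MYC-ER and 253 to 316 in the parental line, 1.85-fold higher (0.89, SE 0.09, edgeR adjusted p = 3.74e-08). SNHG15 stood at 20.5 to 21.0 CPM against 36.2 to 45.1, 1.92-fold lower (-0.94, SE 0.07, edgeR adjusted p = 2.67e-10). GAS5 and SNHG15, which moved in opposite directions in MYC-ER at 8 h, started out on opposite sides of the parental level. Of the other hosts called both here and in MYC-ER at 8 h, SNHG5 and ZFAS1 started above that level and SNHG6 and SNHG1 below it. All of these fell at 8 h. The comparison of the lines at 0 h and the changes from 0 h share the MYC-ER 0 h libraries, so they are not independent.

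SNHG16 was 152 to 155 CPM in MYC-ER against 84.3 to 104 in the parental line (0.72, SE 0.14, edgeR adjusted p = 0.000151), and at 8 and 48 h too the MYC-ER libraries were all above the parental ones. SNHG6 was 26.2 to 27.3 CPM against 36.0 to 51.5 (-0.64, SE 0.08, edgeR adjusted p = 6.12e-07). SNHG5 (0.41), SNHG12 (-0.30) and SNHG1 (-0.29) differed by less, with edgeR adjusted p = 0.000271, 0.000935 and 0.00179. With the GC trend of each library removed SNHG12 stood at -0.12 and was not called (edgeR adjusted p = 0.0944). ZFAS1 (0.19, edgeR adjusted p = 0.0468) overlapped between the lines, and its call was lost in 18 of the 24 fits that left out 1 library, though without parental 0 h replicate 3 it stood at 0.32 and was called. SNHG3 (0.10, edgeR adjusted p = 0.338) and SNHG8 (-0.03, edgeR adjusted p = 0.837) were not called.

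At 8 h MYC-ER was lower than the parental line in 8 hosts and higher in SNHG16, where 25.5% of all genes were lower and 23.1% higher. The ranges of the lines did not overlap for any of the 10 hosts at this time. How many of all genes separated in this way is not given here. SNHG6, at 18.6 to 19.7 CPM against 36.2 to 36.4, was 1.90-fold lower (-0.93, edgeR adjusted p = 6.1e-09). GAS5, higher at 0 h, was now lower at 182 to 191 CPM against 226 to 239 (-0.32, edgeR adjusted p = 0.00834). SNHG5 was lower by -0.23 (edgeR adjusted p = 0.0343), a call lost without parental 8 h replicate 3 (edgeR adjusted p = 0.163), without any MYC-ER 8 h replicate (edgeR adjusted p = 0.0501 to 0.101) and with DESeq2 (adjusted p = 0.0525). With the GC trend removed GAS5 (-0.23, edgeR adjusted p = 0.0599) and SNHG5 (-0.13, edgeR adjusted p = 0.239) were not called, and SNHG15 was called higher (0.21, edgeR adjusted p = 0.0119).

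At 24 h 4 hosts differed between the lines. SNHG1 (0.35), SNHG5 (0.30) and SNHG16 (0.41) were called higher in MYC-ER and SNHG12 (-0.36) lower, against 23.5% and 25.8% of all genes, and 7 of the 10 hosts overlapped. GAS5 held 206 to 217 CPM in MYC-ER and 194 to 255 in the parental line (-0.03, edgeR adjusted p = 0.858). The call of SNHG16 was lost without parental 24 h replicate 1 or 3, or MYC-ER 24 h replicate 1 or 3 (edgeR adjusted p = 0.0589 to 0.13), and without parental 24 h replicate 2 it stood at 0.63. Scaled by library size alone, 6 hosts were higher and 1 lower at this time.

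At 48 h MYC-ER was higher in 6 hosts and lower in 3, against 27.3% and 29.4% of all genes. GAS5 (0.41), SNHG5 (0.50), SNHG16 (0.55), SNHG8 (0.38), SNHG6 (0.36) and ZFAS1 (0.30) were higher. SNHG15 (-0.48), SNHG3 (-0.39) and SNHG12 (-0.20) were lower. The call of SNHG12 was lost without parental 48 h replicate 1 or 2 or MYC-ER 48 h replicate 1 (edgeR adjusted p = 0.054 to 0.11), and with library size alone it stood at -0.06 (edgeR adjusted p = 0.537). Without parental 48 h replicate 1, SNHG3 stood at -0.25 and was still called. SNHG6 had changed sides since 0 h, at 39.2 to 40.5 CPM in MYC-ER against 29.9 to 32.1.

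Whether the change from 0 h differed between the lines was tested as the interaction of line and time, which uses both lines' own 0 h cultures. At 8 h 7 hosts had a lower interaction and SNHG15 a higher one, beside 27.8% and 27.3% of all genes. The interaction was -1.20 for GAS5 (SE 0.13, edgeR adjusted p = 9.82e-08) and 1.03 for SNHG15 (SE 0.10, edgeR adjusted p = 1.97e-08), which joins a rise in MYC-ER (0.82) and a fall in the parental line (-0.21). SNHG3, SNHG5, ZFAS1 and SNHG8 lay between -0.67 and -0.62. SNHG1 (-0.36, edgeR adjusted p = 0.00596) and SNHG6 (-0.29, edgeR adjusted p = 0.0432) were smaller, and with the GC trend removed they stood at -0.16 and -0.04 and were not called. The call of SNHG6 was lost in 21 of the 24 fits without 1 library, and without parental 0 h replicate 3 it stood at -0.47.

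At 24 h SNHG15 (1.02), SNHG1 (0.64) and SNHG6 (0.62) had a higher and GAS5 (-0.91) and ZFAS1 (-0.31) a lower interaction, against 27.7% and 26.8% of all genes. At 48 h SNHG6 (1.01), SNHG15 (0.46) and SNHG8 (0.41) were higher and SNHG3 (-0.50) and GAS5 (-0.47) lower, against 23.6% and 21.4% of all genes. For SNHG6 the 48 h value joins a rise in MYC-ER (0.58) and a fall in the parental line (-0.43). With the GC trend removed, GAS5 (-0.29, edgeR adjusted p = 0.103) and SNHG8 (0.32, edgeR adjusted p = 0.0553) were not called at 48 h. The call of SNHG8 was also lost without 1 of 5 libraries (parental 0 h replicate 3, parental 48 h replicate 2 or 3, or MYC-ER 0 h or 48 h replicate 2), and that of ZFAS1 at 24 h without 1 of 4 (parental 0 h or 24 h replicate 2, MYC-ER 0 h replicate 3 or MYC-ER 24 h replicate 2).

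The order of the 8 groups differed between hosts. GAS5, SNHG5, SNHG16 and ZFAS1 were highest in MYC-ER at 0 h, and for ZFAS1 that group overlapped the next, parental 0 h. SNHG1 was highest in MYC-ER at 24 h, overlapping parental 48 h. GAS5, SNHG1, SNHG3, SNHG6, SNHG8 and ZFAS1 were lowest in MYC-ER at 8 h, and for ZFAS1 this group overlapped MYC-ER at 24 h. SNHG5 was lowest in parental 24 h, which overlapped MYC-ER 8 h. SNHG15 was lowest in MYC-ER at 0 h, apart from every other group.

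Other genes of snoRNA production were read beside the hosts, in lists chosen with earlier results known. Beside these lists, 35.4% of all genes were called lower and 32.2% higher in MYC-ER at 8 h, and 16% and 15% in the parental line. Of 20 other non-coding hosts, 13 were lower and 1 higher in MYC-ER at 8 h, with a median change of -0.61 against -0.10 for all genes. SNHG32 was lower, with a change of -1.505 (edgeR adjusted p = 2.43e-15), and SNHG17 rose by 0.53 (edgeR adjusted p = 6e-06). SNHG18 had 12 to 27 counts per library at 0 h and 0 in all 3 libraries at 8 h, where a count of 0 allows up to 3. It is the lowest of the 20 at that limit as well as in the fit, so the median is the same with it. In the parental line 8 of the 20 were lower and 1 higher at 8 h (median -0.28). At 24 h 13 were lower and 1 higher there (median -0.41), where 21.7% of all genes were lower and 21.2% higher.

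Protein-coding hosts went both ways. Of 50, 18 were higher and 28 lower in MYC-ER at 8 h. The 28 that do not encode ribosomal proteins held 18 higher and 6 lower, with a median of 0.56. HSPA8, which encodes a heat shock cognate chaperone, rose by 2.95 (SE 0.07, edgeR adjusted p = 1.66e-19), and NCL, which encodes nucleolin, rose by 1.55 (SE 0.07, edgeR adjusted p = 2.61e-14). EIF4A2, an RNA helicase of translation initiation, fell by 1.22 (edgeR adjusted p = 2.2e-12), and the ribosomal protein gene RPL13A fell by 0.64 (edgeR adjusted p = 9.21e-07). In the parental line at 8 h 4 of the 50 were higher and 28 lower. Those that do not encode ribosomal proteins held 4 higher and 8 lower there, with a median of 0.01. Between the lines at 0 h, 18 of these 28 were lower and 5 higher in MYC-ER (median -0.33). Of all genes, 32.7% were lower and 31.6% higher in that comparison.

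Genes for the proteins that assemble and make up snoRNPs were read beside the hosts in MYC-ER. Of 19 such genes, 17 were higher and 0 lower at 8 h, with a median change of 1.17. SHQ1, an assembly factor of H/ACA particles, rose by 1.94 (edgeR adjusted p = 2.67e-16), and NOLC1, a nucleolar and Cajal body protein, rose by 1.94 (edgeR adjusted p = 3.51e-18). In the parental line 3 of the 19 were higher and 3 lower at 8 h. At 0 h 16 of the 19 were lower and 0 higher in MYC-ER than in the parental line (median -0.96). Of all genes, 32.7% were lower and 31.6% higher in that comparison. Between the lines at 8 h, 15 were higher and 0 lower in MYC-ER (median 0.48), where 23.1% of all genes were higher and 25.5% lower.

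The cytosolic ribosomal protein genes, known for the pyrimidine start, which was not read for them here, were lower in both lines. In MYC-ER at 8 h 71 of 78 were lower and 0 higher (median -0.39), and in the parental line 66 of 78 were lower and 0 higher (median -0.32). RPLP0 fell by 0.82 (edgeR adjusted p = 7.64e-08) and RPS27 by 0.68 (edgeR adjusted p = 1.36e-05) in MYC-ER. In the interaction at 8 h 4 of the 78 were lower and 1 higher (median -0.06), beside 7 lower and 1 higher of the 10 hosts (median -0.49).

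Of 11 nonsense-mediated decay factors, 5 were higher and 5 lower in MYC-ER at 8 h, with a median of -0.09. The helicase gene UPF1 rose by 0.75 (edgeR adjusted p = 1.19e-10) and SMG9 by 0.61 (edgeR adjusted p = 3.8e-09). XRN1, the exonuclease that degrades decapped RNA, fell by 0.86 (edgeR adjusted p = 0.000191), and UPF3B by 0.45 (edgeR adjusted p = 3.07e-07). Their part in the levels of the hosts was not tested.

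**Figure D3:**
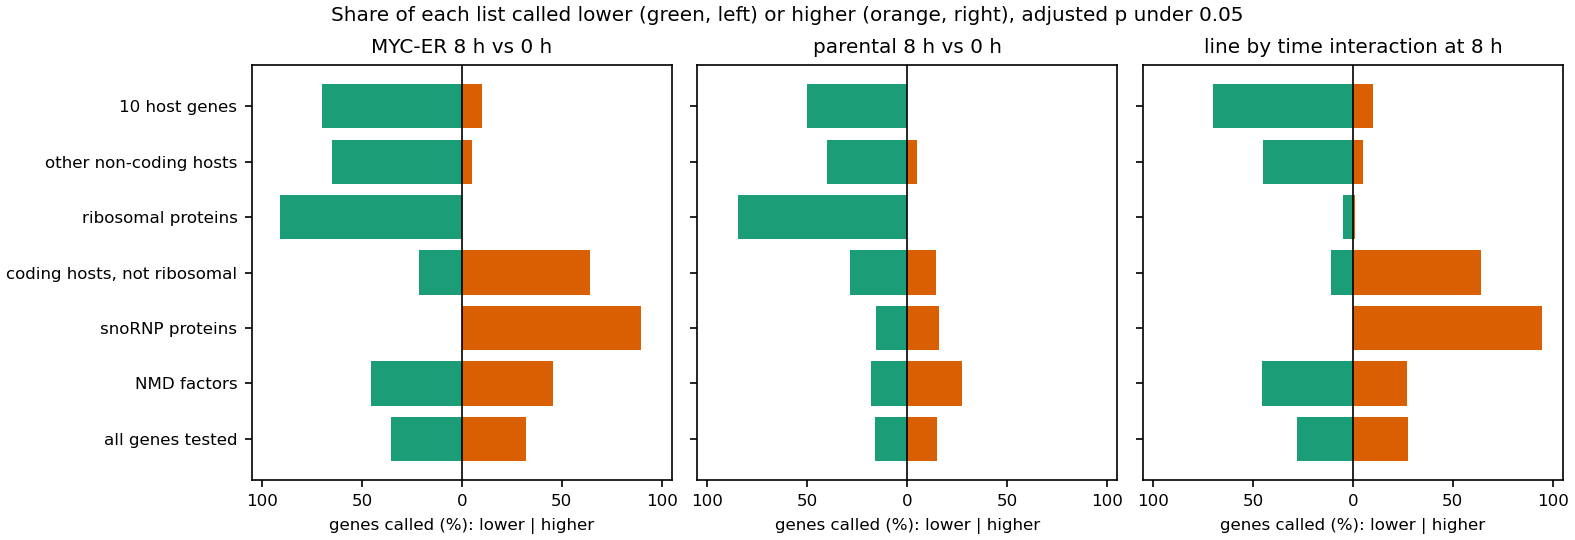
Percent of each list called lower (green, left of 0) or higher (orange, right of 0) at 8 h in MYC-ER, in the parental line and in the interaction of line and time. In MYC-ER 7 of 10 hosts and 71 of 78 ribosomal protein genes are lower and 17 of 19 snoRNP genes are higher.

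Of the 10 hosts, 4 have a protein-coding gene that starts within 1 kb. RCC1, a chromatin-bound exchange factor, lies on the same strand as SNHG3 with a start 37 bases away and a span that overlaps it. SNHG3 changed by -0.82, -0.07 and -0.28 in MYC-ER at 8, 24 and 48 h, and RCC1 by 0.79, 1.501 and 0.51. RCC1 was called higher at all 3 times (edgeR adjusted p = 3.31e-12, 8.79e-17 and 1.91e-08), rising from 73.3 ± 0.54 CPM (SD, n = 3) at 0 h to 127 ± 3.49 at 8 h, while SNHG3 fell. The spans of the 2 genes overlap on 1 strand, so reads in the overlap can count for either.

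SLC3A2, an amino acid transporter subunit, starts 188 bases from SNHG1 on the opposite strand. It changed by -0.52, -0.26 and -0.05 in MYC-ER (edgeR adjusted p = 8.38e-07, 0.00277 and 0.638), where SNHG1 changed by -0.36, 0.50 and 0.21. ZNFX1 starts 248 bases from ZFAS1 on the opposite strand and overlaps it. It changed by -0.32, -0.66 and -0.46, all called (edgeR adjusted p = 0.000105, 5.73e-09 and 2.69e-06), where ZFAS1 changed by -1.01, -0.97 and -0.26. ZBTB37 starts 800 bases from GAS5 on the opposite strand and overlaps it. It changed by -0.23, -0.19 and 0.22, none called (edgeR adjusted p = 0.224, 0.324 and 0.293), where GAS5 changed by -1.47, -1.29 and -0.51. These differences between a host and its neighbour were not tested.

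**Figure D4:**
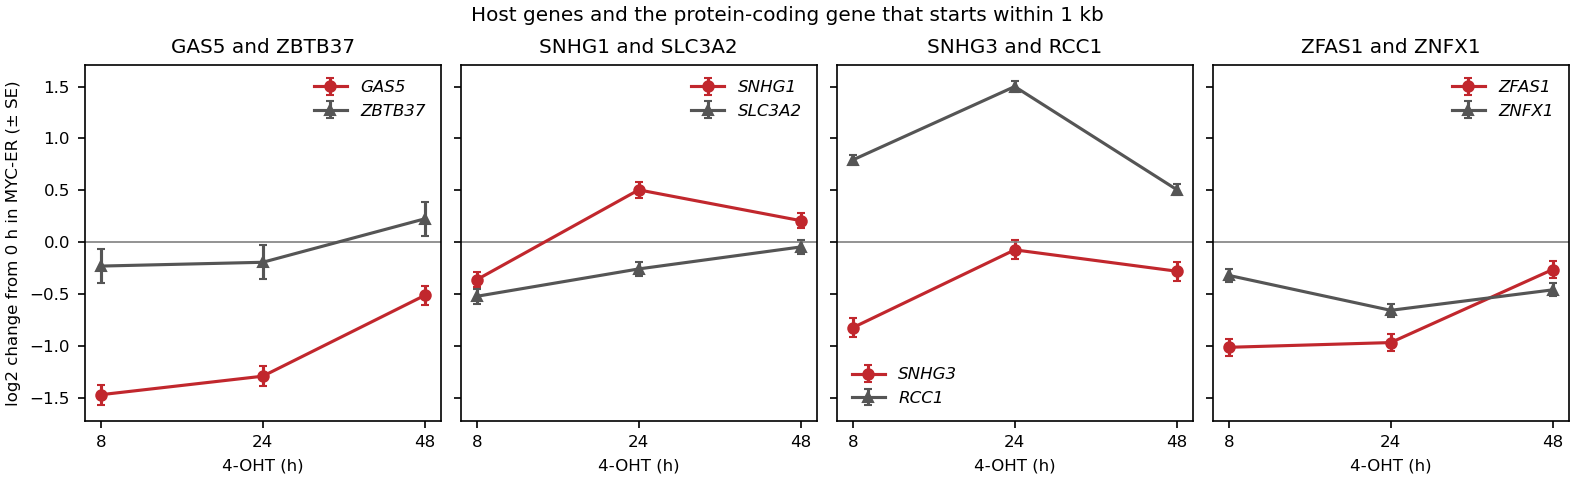
Log2 change from 0 h in MYC-ER (vertical axis, with its standard error) at 8, 24 and 48 h of 4 hosts (red circles) and the protein-coding gene that starts within 1 kb (grey triangles). SNHG3 and RCC1 lie on opposite sides of 0 at 8 h, at -0.82 and 0.79.

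Opposite-strand genes also overlap other hosts: GAS5-AS1 overlaps GAS5, TRNAU1AP overlaps SNHG12, MCMDC2 overlaps SNHG6 and ENSG00000284526 overlaps SNHG16. The library kit keeps the strand, but whether the counting used it is not given in the sources used here, and without it the reads of such pairs cannot be told apart. Over all 24 libraries the levels averaged 14.1 CPM for ZBTB37, 60.6 for ZNFX1, 17.98 for TRNAU1AP, 21.5 for ENSG00000284526, 0.32 for GAS5-AS1 and 0.02 for MCMDC2. In MYC-ER ENSG00000284526 held 26.4 ± 3.95 CPM untreated and 6.49 ± 0.43 after 8 h, then 18.3 ± 3.19 and 37.1 ± 1.49 at the later times, and its part in the levels of SNHG16 was not tested. For GAS5, ZFAS1 and SNHG6 these are below the host's own level in every group, apart from ZNFX1, whose mean lies within the range of ZFAS1.

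Likeness to the pattern of the hosts was measured as Pearson's r over the 8 group means of log2 CPM, which share their libraries and scaling, and it is given as a description. Of the hosts, SNHG8 followed the mean of the other 9 most closely (r = 0.981), then ZFAS1 (0.892), SNHG5 (0.839) and GAS5 (0.73). SNHG12 (0.17) and SNHG16 (-0.01) did not follow it, and SNHG15 ran against it (-0.59). Among 9671 genes with at least 10 CPM, those most like the mean of the 10 hosts were FAM193B (0.972), HIGD2A (0.971), SLC9A3-AS1 (0.968), RPS2P5 (0.964) and TMEM219 (0.963). Those most like GAS5 alone were PDK2 (0.993), ADCY6 (0.985) and UNC5B (0.984).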

How the data were processed

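Polyadenylated RNA of 24 libraries was sequenced as paired reads of 150 bases with a stranded kit, per the labels' protocols. The deposited gene table holds counts made by the authors, whole numbers for 60668 genes. The submitters' processing notes name Trimmomatic 0.39, STAR, StringTie 2.1.3b and GRCh38, and the counting step and its strand setting are not given in the sources used here. The 10 hosts and the gene lists were chosen with earlier results of these data known.

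From the counts, edgeR 4.0.16 (R 4.3.3, limma 3.58.1) was used with its filter on low counts (22158 genes kept), TMM scaling, 1 mean per group over all 24 libraries and the quasi-likelihood test, two-sided. In each of 15 comparisons p-values were adjusted (Benjamini-Hochberg) over all genes tested, with a threshold of 0.05, and calls in the report and closing section are from this test unless another is named. A count of 0 allows up to 3 counts, at most 0.0219 CPM, a limit for counting error only.

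The alternatives were other scalings, filters, DESeq2 1.42.0, the groups compared alone, a replicate block, removal of each library's GC trend (GC content was known for 98% of genes tested) and leaving out each library. Gene spans are from GENCODE 29 and transcription starts from RefSeq GRCh38.p14. Genes named besides the hosts follow a rule: of each list the 2 largest rises and the 2 largest falls among genes called in MYC-ER at 8 h, the nearest protein-coding start and any overlapping gene, and the genes with the highest Pearson's r to the hosts (5) or to GAS5 (3). From these, some are left out of the text, and MYC, ESR1, KRT5, KRT14, KRT17, COL1A1, DCN and SNHG18 were named outside that rule. Same-numbered replicates were not paired: in no comparison of 2 groups did the deviations from the group means correlate above 0.1 for all 3 numbers.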

Additional observations from a re-analysis of the deposited data

Results flagged for a closer look

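By the interaction of line and time, the change from 0 h differed between MYC-ER and parental cells in 18 combinations of host and time (edgeR's quasi-likelihood test, adjusted over all genes tested). Of all genes, 27.8%, 26.8% and 21.4% had a lower and 27.3%, 27.7% and 23.6% a higher interaction at 8, 24 and 48 h. All values are log2 differences, MYC-ER minus parental, between 2 changes from 0 h, and the 3 times share the 0 h libraries of both lines. At 8 h GAS5 stood at -1.20, SNHG3 at -0.67, SNHG5 at -0.64, ZFAS1 at -0.63, SNHG8 at -0.62, SNHG1 at -0.36 and SNHG6 at -0.29, and SNHG15 at 1.03. At 24 h GAS5 stood at -0.91 and ZFAS1 at -0.31, and SNHG15 at 1.02, SNHG1 at 0.64 and SNHG6 at 0.62. At 48 h SNHG3 stood at -0.50 and GAS5 at -0.47, and SNHG6 at 1.01, SNHG15 at 0.46 and SNHG8 at 0.41. GAS5 was lower and SNHG15 higher at all 3 times, and SNHG6 higher at 24 and 48 h. The 8 h call of SNHG6 was lost in 21 of the 24 fits without 1 library, and with the GC trend removed it stood at -0.04 and was not called, as GAS5 at 48 h was not (-0.29, edgeR adjusted p = 0.103). With that trend removed SNHG1 at 8 h and SNHG8 at 48 h were not called either. The call of SNHG8 at 48 h was also lost in 5 of the fits without 1 library, and that of ZFAS1 at 24 h in 4.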

How the results depend on the processing

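Of the results for single hosts, 4740 kept their direction and their side of the threshold under an alternative, 83 passed where the reported fit did not, 126 no longer passed and 1 reversed. Of these, 3491, 30, 79 and 0 came from fits without 1 library. Many of those fits left out a library outside the groups compared, where little could change, so the total says little about stability. The reversed one is SNHG12 in parental cells at 24 h against 0 h, at 0.018 with the GC trend removed (adjusted p = 0.865 by edgeR). With library size alone, 4 hosts were called in MYC-ER at 48 h against 0 h (3 higher, 1 lower), 3 in parental cells at 8 h and 7 between the lines at 24 h. Without a filter on low counts, 3 were called in parental cells at 8 h. With only the groups compared, 8 were called in MYC-ER at 48 h, 0 in parental cells at 8 h (5 at an unadjusted p under 0.05, and 5 by DESeq2) and 1 in parental cells at 48 h. With the replicate block, the counts called matched the reported ones in all 15 comparisons, for example 8 in MYC-ER at 8 h.

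Leaving out 1 library at a time, the hosts called in MYC-ER ranged from 8 to 9, 7 to 8 and 4 to 6 for the changes from 0 h in order of time. In parental cells they ranged from 3 to 6, 6 to 9 and 3 to 7. The low of 3 at 8 h came without parental 0 h replicate 3 or any parental 8 h replicate, and that at 48 h without parental 0 h replicate 3. Between the lines the ranges were 7 to 8, 8 to 9, 3 to 6 and 8 to 9 in order of time, and for the interaction 7 to 8, 4 to 5 and 4 to 6. For MYC-ER at 24 against 8 h it was 5 to 6, and at 48 against 24 h 7 to 8. The causes were not tested.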
